A study of Mus musculus with 4 samples.

Results

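The genes described here are 10 transcription factors of embryonic mesenchyme, the loose connective tissue that lies around the neural tube: Six2, Alx4, Tbx15, Twist1, Prrx1, Pax1, Pax9, Foxc2, Meox1 and Tbx18. They are 10 of the 24971 genes counted, and all 10 were among the 10757 genes that passed the filter on low counts. The set was selected on the levels of Six2, Tbx15 and Alx4, around which it was built because they were lower in the libraries labelled mutant within each replicate number. The difference between the genotype labels is therefore given for these genes as a description, with no test. The difference between replicate numbers was not the ground for this selection and was tested. The 10 genes were, however, chosen with earlier results of these data known.

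RNA had been sequenced from E12.5 neural tubes of C57BL/6 mouse embryos. The 4 libraries were 2 labelled Lbx1Δ/Δ and 2 labelled WT, numbered 1 and 2 within each label. Each was made from pooled tubes of littermates, so a value stands for a pool and not for an embryo. The labels give neither the number of embryos in a pool nor the part of Lbx1 that was removed. Their protocol can be read as putting tubes of both genotypes from a shared litter under the same number, but does not say so outright. The numbers were therefore not treated as pairs in the main test on the label. The test of number 2 against number 1 does group same-numbered libraries across the labels. It has a meaning only if the numbers mark something that those libraries share. Lbx1 itself, the targeted homeobox gene of dorsal interneurons, had 6520 and 1946 counts in libraries 2 and 1 labelled Lbx1Δ/Δ, against 1379 and 819 in WT libraries 2 and 1. These counts run against the mutant label unless the counted reads lie outside the deletion, and directions are given between libraries as labelled. Total counts were 16853984 and 17250143 in libraries 2 and 1 labelled Lbx1Δ/Δ, and 16948717 and 20579803 in WT libraries 2 and 1.

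Mesenchyme beside the tube has several sources. Somites give rise to the sclerotome, which forms vertebrae and ribs, and to the dermomyotome, which forms muscle and the dermis of the back. Neural crest and head mesoderm form the mesenchyme of the skull and face. Pax1 and Pax9 are paired-box factors of the ventral sclerotome, and Foxc2 is a forkhead factor of sclerotome, vessels and meninges. Twist1 is a bHLH factor, Prrx1 and Alx4 are paired-type homeodomain factors, and Tbx15 is a T-box factor, all known from craniofacial, limb or dermal mesenchyme. Six2 is a sine oculis homeobox factor of head mesenchyme and of nephron progenitors. Meox1 is a homeobox factor of the somite, and Tbx18 is a T-box factor that keeps the anterior and posterior parts of a somite apart and is also made in mural cells and urogenital mesenchyme.

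All 10 genes were detected in every library, with 46 to 3817 counts, so none rests on values near the floor of 3 counts. Levels are given as CPM, the usual read count scaled by the TMM-adjusted library total, and are compared between genes only per kilobase of transcript. Per kilobase, Twist1 was the most abundant, at 24.9 to 115 CPM per kb over the 4 libraries, and Pax1 was next, at 20.8 to 49.98 CPM per kb. Foxc2 (8.996 to 23.3), Meox1 (4.07 to 27.2), Six2 (1.27 to 34.1) and Tbx15 (3.63 to 25.3 CPM per kb) had means between 13.1 and 16.7 CPM per kb, and their ranges overlapped. Pax9 (3.61 to 11.1), Alx4 (1.01 to 14.6), Prrx1 (2.20 to 7.37) and Tbx18 (2.68 to 7.65 CPM per kb) had lower means, and their ranges overlapped as well. In proportion to level, Six2 had the widest range of the 10 and Pax1 the narrowest. Prrx1 is uncertain, since it has 3 RefSeq accessions and nearly all of its counts fell on a single accession. Exons of Pax1, Pax9 and Tbx18 overlap genes on the opposite strand in the GENCODE annotation (AI646519, Slc25a21 and D030062O11Rik). The strand setting of the counting is not given, so reads of such a pair cannot be told apart.

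The promoter table of RefSeq (build GRCm38.p6) held windows for 6 of the 10 genes, Six2, Twist1, Prrx1, Pax1, Pax9 and Tbx18. The 250 bases upstream of the start are shown for Six2, which differed most between the replicate numbers, for Twist1, the gene with the highest mean per kilobase, and for Tbx18, whose window held an E-box. They are read 5′ to 3′ on the gene's strand from chr17:85688255-85688504 (minus strand), chr12:33957421-33957670 (plus strand) and chr9:87731261-87731510 (minus strand). Capitals mark matches on either strand to the E-box CANNTG, the class of site that Twist1 and other bHLH factors bind, to the homeodomain core TAATTA, or to the TATA box TATAAA.
Six2: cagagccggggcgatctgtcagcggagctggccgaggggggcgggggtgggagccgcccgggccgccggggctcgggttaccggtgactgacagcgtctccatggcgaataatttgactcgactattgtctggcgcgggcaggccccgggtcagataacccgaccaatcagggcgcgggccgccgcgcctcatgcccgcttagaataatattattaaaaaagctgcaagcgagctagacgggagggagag
Twist1: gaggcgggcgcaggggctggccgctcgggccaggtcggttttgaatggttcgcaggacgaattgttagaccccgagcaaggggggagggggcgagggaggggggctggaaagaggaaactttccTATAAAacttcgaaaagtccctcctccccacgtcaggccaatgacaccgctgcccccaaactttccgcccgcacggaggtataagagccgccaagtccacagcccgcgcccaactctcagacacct
Tbx18: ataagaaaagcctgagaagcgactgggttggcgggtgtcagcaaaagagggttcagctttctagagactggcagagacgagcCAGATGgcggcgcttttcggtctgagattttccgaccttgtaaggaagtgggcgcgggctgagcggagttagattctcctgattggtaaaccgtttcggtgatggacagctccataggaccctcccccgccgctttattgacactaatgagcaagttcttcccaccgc
Six2 matched none of these motifs, Twist1 held 1 TATAAA, and Tbx18 held 1 CANNTG. Of the other windows, Pax9 held 1 CANNTG, Prrx1 held 1 TAATTA and Pax1 held none. Of all 32851 windows in the table, 66.2% held CANNTG, 4.84% held TAATTA and 12.4% held TATAAA within the same 250 bases. CANNTG and TAATTA read the same on both strands, and no match overlapped another in the printed windows. A match is a description of the sequence and not a bound site.

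All 10 transcription factors were lower in the number 2 pools than in the number 1 pools, under both genotype labels. In edgeR's quasi-likelihood test of number 2 against number 1, with the genotype label as a covariate, 10 of 10 passed a Benjamini-Hochberg adjusted p of 0.05 over all 10757 genes. Over all genes tested, 17.8% were called lower and 17.8% were called higher. The fitted differences of the 10 ran between −0.83 and −3.56 on the log2 scale, with a median of −1.31, against a median of 0.0001 over all genes tested. In each of the 10 both number 2 libraries lay below both number 1 libraries, an order found in 33.1% of all genes tested. In bulk RNA, fewer cells of a type and less RNA per cell cannot be told apart. The samples are pools that may also differ by litter. The error in this test is the disagreement between the labels on the number difference, shared in part across genes. No pool was repeated within a label and number, so these p-values do not measure the spread between like pools or between litters.

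**Figure D1:**
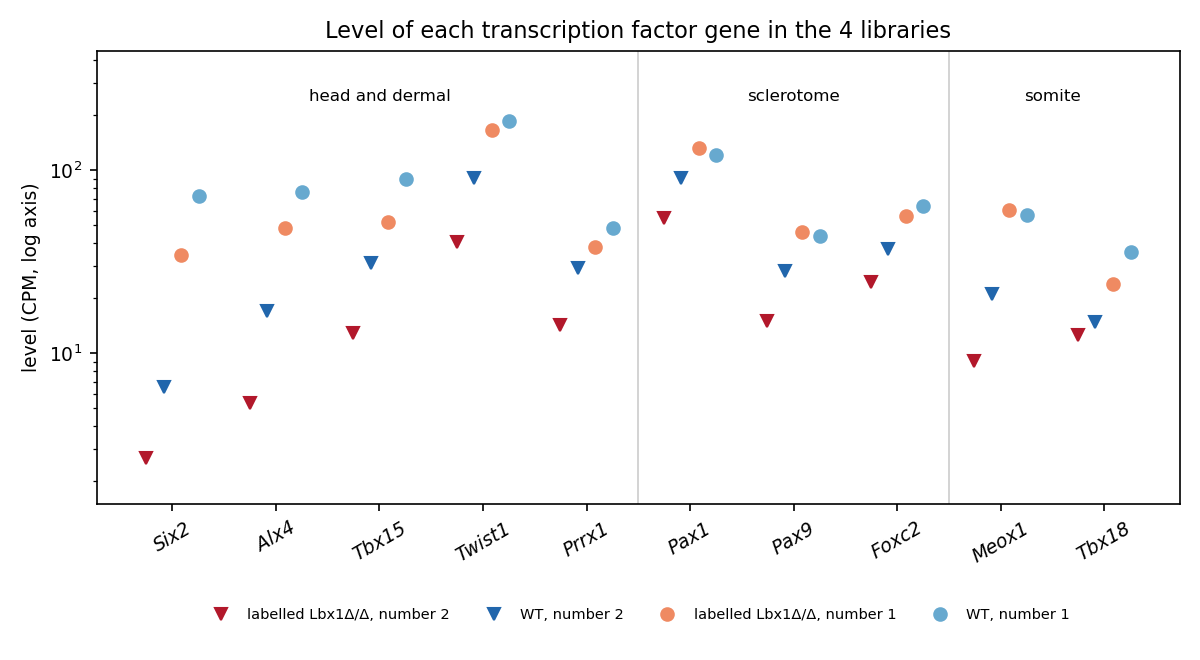
Level of each of the 10 genes (CPM, log axis) in the 4 libraries, with triangles for number 2 and circles for number 1, and red shades for the libraries labelled Lbx1Δ/Δ and blue shades for WT. For every gene both triangles lie below both circles, and the gap is widest for Six2.

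The head and dermal mesenchyme factors showed the widest range of differences between the numbers. Six2 was at 2.69 CPM in library 2 labelled Lbx1Δ/Δ and 6.51 CPM in WT library 2, against 34.5 CPM in library 1 labelled Lbx1Δ/Δ and 72.3 CPM in WT library 1. Both number 2 pools thus held a small part of the Six2 transcript of either number 1 pool, a fitted 11.8-fold reduction (log2 −3.56, SE 0.17, edgeR adjusted p = 3.26e-09). Six2 ranked 3 by p-value and 20 by size of decrease among the 10757 genes. Alx4, a factor of frontal bone, limb and dermis, was at 5.32 CPM in library 2 labelled Lbx1Δ/Δ and 17.04 CPM in WT library 2, against 48.2 CPM in library 1 labelled Lbx1Δ/Δ and 76.5 CPM in WT library 1. It fell 6.13-fold in the fit (log2 −2.61, SE 0.20, edgeR adjusted p = 1.39e-07), and 9.05-fold within the libraries labelled Lbx1Δ/Δ against 4.49-fold within WT.

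Tbx15, a factor of dermal and skeletal precursors, was at 12.9 CPM in library 2 labelled Lbx1Δ/Δ and 31.0 CPM in WT library 2, against 52.5 CPM in library 1 labelled Lbx1Δ/Δ and 90.0 CPM in WT library 1. The fitted log2 difference was −1.77 (SE 0.15, edgeR adjusted p = 3.54e-07). Twist1, which acts in the mesenchyme of cranial sutures and limbs, was at 40.5 CPM in library 2 labelled Lbx1Δ/Δ and 90.8 CPM in WT library 2, against 165 CPM in library 1 labelled Lbx1Δ/Δ and 187 CPM in WT library 1. Its number 1 pools lay close together and its number 2 pools apart, so that the fitted log2 difference of −1.52 (SE 0.15, edgeR adjusted p = 1.89e-06) joined −2.03 within the libraries labelled Lbx1Δ/Δ with −1.04 within WT. Prrx1, a factor of limb and craniofacial mesenchyme, was at 14.3 and 29.3 CPM in number 2 libraries labelled Lbx1Δ/Δ and WT, against 37.9 and 48.1 CPM in number 1 libraries labelled Lbx1Δ/Δ and WT. Its fitted log2 difference was −1.05 (SE 0.17, edgeR adjusted p = 0.000165).

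The sclerotome factors had smaller fitted decreases than Six2 and Alx4. Pax1 was at 54.9 CPM in library 2 labelled Lbx1Δ/Δ and 91.1 CPM in WT library 2, against 132 CPM in library 1 labelled Lbx1Δ/Δ and 122 CPM in WT library 1. Its fitted log2 difference of −0.83 (SE 0.14, edgeR adjusted p = 0.000228) was the smallest of the 10. It was −1.27 within the libraries labelled Lbx1Δ/Δ and −0.42 within WT, and DESeq2 did not call it (adjusted p = 0.113). Pax9, which acts with Pax1 in vertebral development, was at 15.04 CPM in library 2 labelled Lbx1Δ/Δ and 28.3 CPM in WT library 2, against 46.1 CPM in library 1 labelled Lbx1Δ/Δ and 43.6 CPM in WT library 1. It fell 2.15-fold (log2 −1.10, SE 0.19, edgeR adjusted p = 0.000322). Foxc2 was at 24.5 CPM in library 2 labelled Lbx1Δ/Δ and 37.4 CPM in WT library 2, against 56.4 CPM in library 1 labelled Lbx1Δ/Δ and 63.6 CPM in WT library 1, and fell 1.97-fold (log2 −0.98, SE 0.14, edgeR adjusted p = 7.11e-05). All 3 sclerotome genes had number 1 pools that lay close together whichever label they carried.

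The somite factors Meox1 and Tbx18 differed in size. Meox1 was at 9.07 CPM in library 2 labelled Lbx1Δ/Δ and 21.1 CPM in WT library 2, against 60.7 CPM in library 1 labelled Lbx1Δ/Δ and 57.2 CPM in WT library 1. Its fitted fall of 4.15-fold (log2 −2.05, SE 0.22, edgeR adjusted p = 4.06e-06) was the third largest, at 6.69-fold within the libraries labelled Lbx1Δ/Δ and 2.72-fold within WT. Tbx18 was at 12.52 CPM in library 2 labelled Lbx1Δ/Δ and 14.8 CPM in WT library 2, against 24.0 CPM in library 1 labelled Lbx1Δ/Δ and 35.8 CPM in WT library 1 (log2 −1.11, SE 0.16, edgeR adjusted p = 5.99e-05). Tbx18 was the exception among the 10 in having the larger difference between numbers within WT (−1.27) than within the libraries labelled Lbx1Δ/Δ (−0.94). The other 9 had the larger difference within the libraries labelled Lbx1Δ/Δ. With 1 library for each label and number, that contrast has no test.

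**Figure D2:**
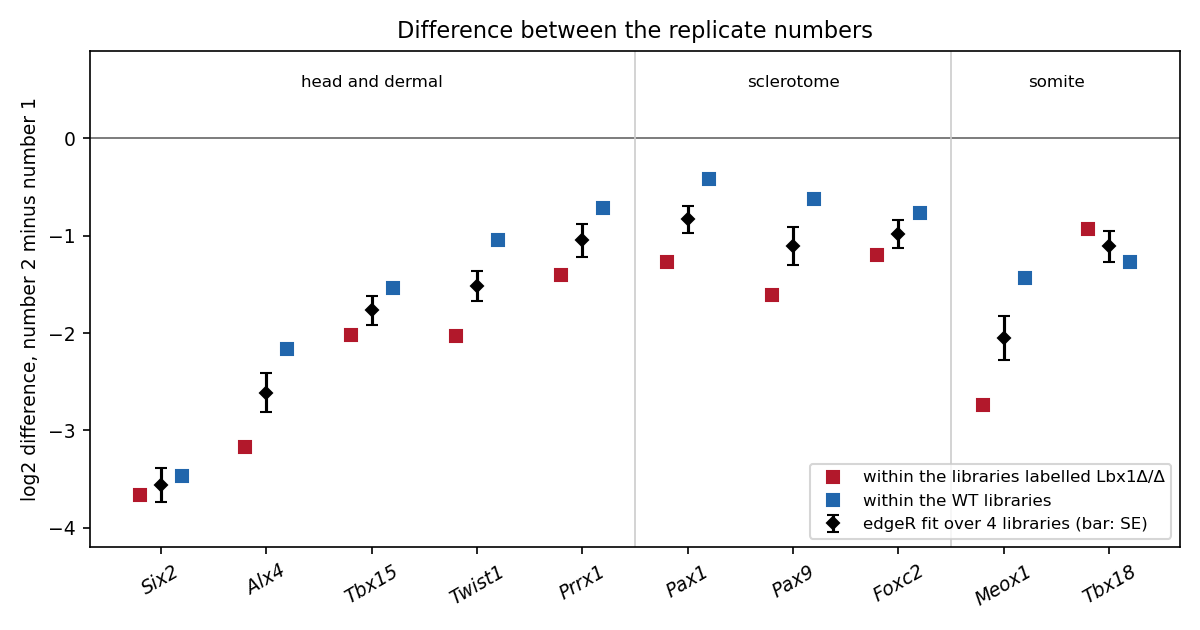
Difference between number 2 and number 1 (log2) for the 10 genes, within the libraries labelled Lbx1Δ/Δ (red squares), in the fit over 4 libraries (black diamonds, bars SE) and within WT (blue squares). Every point is below 0, from −3.67 for Six2 to −0.42 for Pax1.

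In order of size the fitted decreases ran Six2, Alx4, Meox1, Tbx15, Twist1, Tbx18, Pax9, Prrx1, Foxc2 and Pax1. Six2 and Alx4 were 0.94 apart on the log2 scale, more than the SE of either. The last 5 lay within 0.28 of each other, little more than their SEs of 0.14 to 0.19, so their order is not resolved. DESeq2 gave a larger SE for every gene, from 0.19 for Foxc2 to 0.61 for Meox1, with 0.47 for Twist1. With those SEs the places of Meox1, Tbx15 and Twist1 in the order are not resolved either. Read ratios to Pax1, the gene with the smallest fitted decrease, restate the unequal decreases within each library and are no separate support for them. For every 100 reads of Pax1 there were 4.90 and 7.14 reads of Six2 in number 2 libraries labelled Lbx1Δ/Δ and WT, against 26.1 and 59.4 in number 1 libraries labelled Lbx1Δ/Δ and WT. Alx4 gave 9.69 and 18.7 reads in the same number 2 libraries, against 36.5 and 62.9 in the number 1 libraries. Tbx15 gave 23.5 and 34.03 reads in the number 2 libraries, against 39.8 and 74.1 in the number 1 libraries, Twist1 73.7 and 99.7, against 125 and 154, and Meox1 16.5 and 23.1, against 45.9 and 47.02. Relative to Pax1, these 5 genes were thus lower in both number 2 pools than in either number 1 pool. Pax9 was lower too, by less, at 27.4 and 31.04 reads in the number 2 libraries, against 34.9 and 35.8 in the number 1 libraries. Foxc2, Prrx1 and Tbx18 overlapped between the numbers on this scale.

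Between the genotype labels, all 10 genes had lower fitted values in the libraries labelled Lbx1Δ/Δ, as did 50.5% of all genes tested. The fitted log2 differences ran from −0.17 for Meox1 to −1.08 for Six2, with a median of −0.45. Their SEs of 0.45 to 1.49 include the difference between numbers. In 0 of the 10 did both libraries labelled Lbx1Δ/Δ lie below both WT libraries, an order found in 10% of all genes tested. Over all genes, edgeR's test on the label called 0 genes (0%), with 55 at an unadjusted p below 0.05, and DESeq2 called 0, with 33. With the replicate number as a block, which holds only if the numbers pair the pools, edgeR called 92. These values come from the contrast on which the set was built and support nothing about it.

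Six2, Tbx15 and Alx4 were chosen for being lower in the library labelled Lbx1Δ/Δ within both numbers. Of the other 7 genes, Twist1, Prrx1, Foxc2 and Tbx18 were lower in that way too, as were 30.9% of all genes tested, and nothing is read from this count. Six2 in the library labelled Lbx1Δ/Δ was at 41.4% of the WT level within number 2 and at 47.8% within number 1, values on which the gene was selected, each from 1 library against 1. Tbx15 was at 41.7% and 58.3% of WT within numbers 2 and 1, and Alx4 at 31.3% and 63.0%. Twist1 was at 44.6% of WT within number 2 and at 88.4% within number 1, and Prrx1 at 49.0% and 78.8%. These 5 genes summed to 75.8 and 338 CPM in libraries 2 and 1 labelled Lbx1Δ/Δ, against 175 and 474 CPM in WT libraries 2 and 1.

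The label difference was larger within number 2 in 9 of the 10 genes, Tbx18 being the exception. Within number 2, Pax1, Pax9 and Foxc2 in the library labelled Lbx1Δ/Δ were at 60.3%, 53.2% and 65.6% of WT. Within number 1, they were at 109%, 106% and 88.6% of WT. Meox1 was at 43.1% of WT within number 2 and 106% within number 1, while Tbx18 was at 84.7% and 66.97%. Pax1, Pax9 and Meox1 were therefore on the other side of 0 within number 1, a pattern shown by 21.8% of all genes tested. Around 0, Foxc2 and Twist1 lay just below within number 1 (log2 −0.17 and −0.18), and Pax9, Meox1 and Pax1 just above (0.08, 0.09 and 0.12). The sclerotome genes summed to 94.5 and 235 CPM in libraries 2 and 1 labelled Lbx1Δ/Δ, against 157 and 229 CPM in WT libraries 2 and 1.

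**Figure D3:**
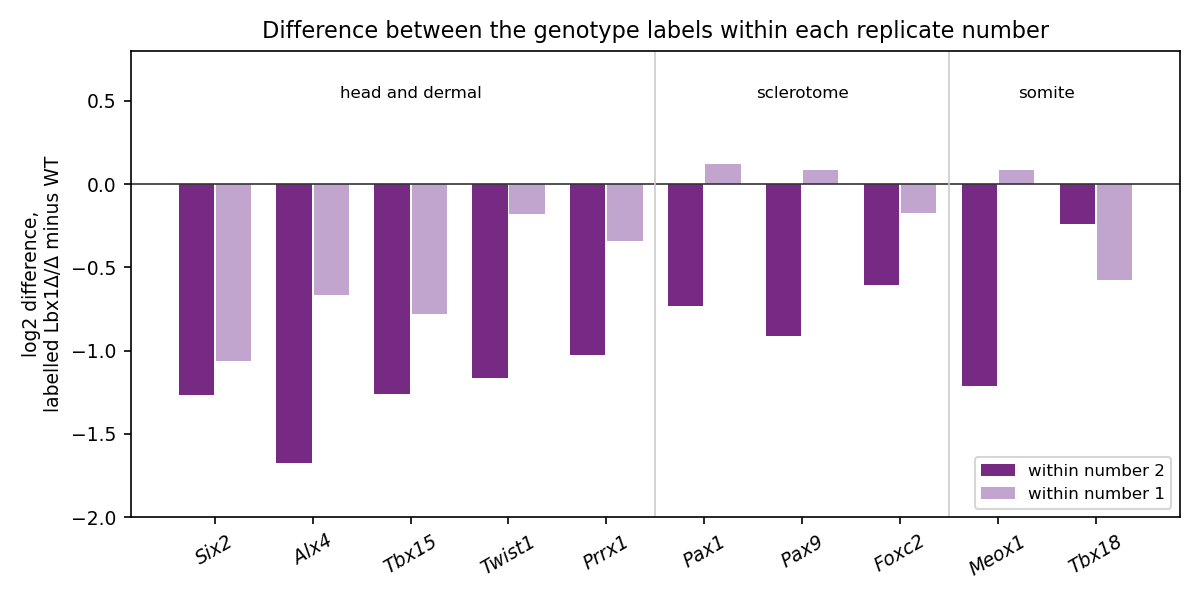
Difference between the libraries labelled Lbx1Δ/Δ and WT (log2 CPM with 0.5 counts added) for the 10 genes, within number 2 (dark bars) and within number 1 (light bars), with 1 library on each side of every difference. All dark bars are below 0, and the light bars are below 0 for the head and dermal genes, Foxc2 and Tbx18 but slightly above 0 for Pax1, Pax9 and Meox1.

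The nearest relatives of the 10 genes also fell in the number 2 pools in most cases. Of 35 relatives from the same gene families, with the Eya partners of Six2, 23 passed the filter on low counts. Of these, 15 were called lower in number 2 and 4 higher, with a median log2 difference of −0.92, where 17.8% of all genes tested were called in each direction. Meox2, the partner of Meox1 in the somite, had 225 and 338 counts in number 2 libraries labelled Lbx1Δ/Δ and WT, against 811 and 1059 in the number 1 libraries (log2 −1.60, SE 0.16, edgeR adjusted p = 1.52e-06). Foxd1, a forkhead factor of head mesenchyme and kidney stroma, fell as well (log2 −1.48, SE 0.14), as did Foxc1, the close relative of Foxc2 (log2 −0.93, SE 0.09). Foxc2 had 41.9 to 49.2 reads per 100 of Foxc1 in the 4 libraries. Pax2 and Pax8, which mark neurons of the cord and also kidney, went the other way and rose by log2 1.11 (SE 0.09) and 1.31 (SE 0.11, edgeR adjusted p = 1.67e-07 and 1.97e-07). The relatives were listed by family and not by tissue. The 4 Eya genes had at most 5 counts in any library and several accessions each, and were not tested.

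Genes from other lists of mesenchymal regulators were also called lower in number 2, where 17.8% of all genes tested were called lower and 17.8% higher. Of 17 tested head mesenchyme genes outside the set, 16 were called lower and 0 higher, or 13 and 0 by DESeq2. Their median log2 difference was −1.48. Among these, Prrx2 had 82 and 150 counts in number 2 libraries labelled Lbx1Δ/Δ and WT, against 299 and 484 in the number 1 libraries (log2 −1.62, SE 0.19, edgeR adjusted p = 8e-06). Pitx1, a factor of hindlimb and jaw mesenchyme, had 0 and 13 counts in number 2 libraries labelled Lbx1Δ/Δ and WT, against 158 and 275 in the number 1 libraries. Of 8 tested limb genes 6 were called lower, among them Msx2 (log2 −1.16, SE 0.15) and Hand2, which had 2 and 26 counts in number 2 libraries labelled Lbx1Δ/Δ and WT, against 118 and 187 in the number 1 libraries. Of 9 tested dermal genes 7 were called lower, among them Twist2 (log2 −1.68, SE 0.22) and the Wnt regulators Dkk2 (−0.85, SE 0.14) and Dkk1 (−1.72, SE 0.32). Prrx2, Msx1, Msx2 and Pitx1 stand in more than 1 of these lists, so the lists are not independent.

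Of 11 tested sclerotome and vertebral genes outside the set, 8 were called lower and 2 higher, with a median of −0.67. DESeq2 called 6 lower and 1 higher, and edgeR without a label term called 6 and 0. For this and the next lists, 17.8% of all genes tested were called in each direction. Gli2, a transducer of hedgehog signals, and Sox9, the chondrogenic factor that progenitors of the cord also make, both fell (log2 −0.63 and −0.54, SE 0.09 each). Uncx was called higher (log2 0.31, SE 0.11, edgeR adjusted p = 0.0431), a call that was lost without a label term. Of 13 tested meningeal genes 6 were called lower and 4 higher, with a median of 0.06, and 2 were called higher by DESeq2 or without a label term. S1pr3, a sphingosine phosphate receptor, fell (log2 −1.60, SE 0.12), and Slc6a13, a transporter of GABA in leptomeninges, rose by 1.66 (SE 0.17). Of 7 tested mural genes 4 were called lower and 1 higher, among them Acta2, smooth muscle actin (log2 −1.51, SE 0.11), and Rgs5, a pericyte gene (log2 0.58, SE 0.09). Of 11 tested genes of somite segments and dermomyotome 4 were called lower and 2 higher, with a median of 0.09. The 2 called higher were Uncx and Lbx1, the targeted gene of dorsal interneurons (log2 1.41, SE 0.12). Without a label term in the fit 2 were called lower and 0 higher. Of 7 tested nephron progenitor and urogenital genes, a tissue in which Six2 is also known, 3 were called lower and 2 higher. Pax8, with the smallest p of the list, rose (log2 1.31, SE 0.11), while Osr1 (−1.10, SE 0.14) and Wt1 (−2.21, SE 0.33) fell. Wt1 was not called by edgeR without a label term.

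**Figure D4:**
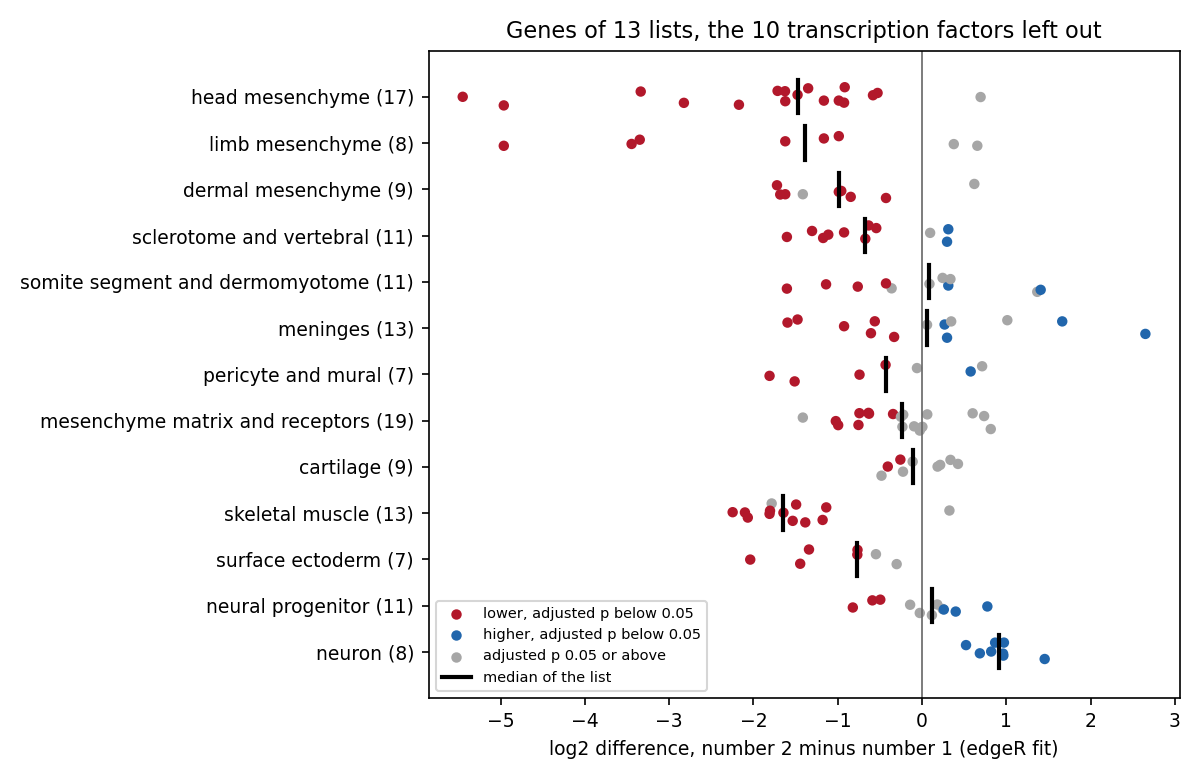
Fitted log2 difference between number 2 and number 1 for the tested genes of 13 lists with the 10 transcription factors left out, 1 point a gene, coloured by edgeR's call, with a black line at each list's median and the number of genes in parentheses. Head mesenchyme (median −1.48) and skeletal muscle (−1.64) lie furthest to the left, matrix (−0.23) and cartilage (−0.11) lie near 0, and neuronal genes (0.91) lie to the right.

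Of 19 tested matrix and receptor genes of mesenchyme 7 were called lower in number 2 and 0 higher, with a median of −0.23, against 17.8% of all genes tested called in each direction. Without a label term 5 of the 19 were called lower. Lum, a proteoglycan, and Fbn2, a microfibril protein, both fell (log2 −0.74, SE 0.09, and −1.02, SE 0.12). Col1a1, the main collagen of connective tissue, had a log2 difference of −0.01 (SE 0.10, edgeR adjusted p = 0.959). Of 9 tested cartilage genes 2 were called lower, Col9a2 and Hapln1, a share near that of all genes, and 0 were called by DESeq2 or without a label term. Between the labels, 15 of the 19 matrix genes and 9 of 9 cartilage genes were lower within both numbers in the libraries labelled Lbx1Δ/Δ, against 30.9% of all genes tested. Their median label differences were −0.33 and −0.45, and none of these genes was called by edgeR on the label.

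Among markers of other tissues, the summed muscle markers separated the numbers in the same direction as the 10 genes, and their part in the result was not tested. The summed ectoderm, mesenchyme and cartilage markers overlapped between the numbers, though each sum was lower in number 2 within both labels. The 10 genes summed to 192 and 367 CPM in number 2 libraries labelled Lbx1Δ/Δ and WT, against 658 and 796 CPM in the number 1 libraries. The 6 skeletal muscle markers summed to 129 and 412 CPM in number 2 libraries labelled Lbx1Δ/Δ and WT, against 747 and 875 CPM in the number 1 libraries, and 5 of the 6 were called lower. The 5 surface ectoderm markers summed to 41.8 and 66.6 CPM in the number 2 libraries, against 65.1 and 93.8 CPM in the number 1 libraries, with 1 called lower, Trp63 at 0 in all libraries and Krt14 at 0 in 3 of them. The 8 mesenchyme markers summed to 4183 and 4737 CPM in the number 2 libraries, against 4424 and 6285 CPM in the number 1 libraries, with 3 called lower and none at 0. Most of that sum came from its collagen genes, so it says little about the other mesenchyme markers. The 5 cartilage markers summed to 18.96 and 24.4 CPM in the number 2 libraries, against 20.2 and 25.1 CPM in the number 1 libraries, with 0 called, Cnmd at 0 in all libraries and Acan at 0 to 1 counts. Neuronal markers went the other way. The 5 of them summed to 6383 and 5539 CPM in number 2 libraries labelled Lbx1Δ/Δ and WT, against 3505 and 3073 CPM in the number 1 libraries, with 3 called higher. The 5 progenitor markers summed to 1491 and 1417 CPM in the number 2 libraries, against 1488 and 1534 CPM in the number 1 libraries, with 0 called and Pax6 at 0 in all libraries. Acan, Cnmd, Krt14, Trp63 and Pax6 have several accessions each and may be counted in part only. The same holds for Col2a1 and Col9a1, which make up most of the cartilage sum, so that sum is not read as a level of cartilage. It holds as well for Pdgfra, Dcn and Postn among the mesenchyme markers, Mylpf among the muscle markers, and Dcx and Snap25 among the neuronal markers.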

How the data were processed

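RNA from pooled E12.5 mouse neural tubes was measured in 4 libraries. The authors deposited unnormalized counts for each RefSeq transcript, as the whole numbers in the files show. The submitters' processing notes name TopHat2 2.1.1, featureCounts 4.6.0.1, edgeR 3.4.3 and build mm9. How strand and shared reads were handled is not given in the sources used here. Counts of 41411 accessions were summed here to 24971 genes with RefSeq and GENCODE names of GRCm38, 96 of the accessions staying unnamed.

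Low counts were removed with filterByExpr (minimum count 10, minimum total 15), libraries were scaled with TMM, and edgeR 4.0.16 in R 4.3.3 (glmQLFit, glmQLFTest, two-sided, Benjamini-Hochberg, 0.05) tested number 2 against number 1 with label as covariate, and label alone. SE is the size of the log2 difference over the square root of F. CPM use the TMM-scaled totals, and differences between 2 libraries add 0.5 counts. Lengths per kilobase are of the GENCODE transcript matched to each gene's main accession. Alternatives were RLE scaling, library totals, DESeq2 1.42.0, other filters, single-accession genes, the replicate block, number without label, and leaving out each library. The test of number was checked on simulated counts with changes planted in 200 genes. Those counts held no difference between litters, so the check does not bear on the spread between pools or litters. The 10 genes and the gene lists were chosen with earlier results of these data known. Besides the 10 genes, genes were named by the smallest p in each list, up to 4 on number and 3 on label. The overlapping and zero-count genes, Trp63, Krt14, Acan, Cnmd, Pax6 and the Eya genes, were named after their values were seen. So were the other markers with several accessions. The floor of 3 counts covers counting error only.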

Additional observations from a re-analysis of the deposited data

Results flagged for a closer look

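The difference between the labels went opposite ways within the separate replicate numbers for 3 of the 10 genes. Pax1 had a log2 difference of −0.73 within number 2 and 0.12 within number 1, a gap of −0.85. Pax9 had −0.91 within number 2 and 0.08 within number 1, a gap of −0.99. Meox1 had −1.21 within number 2 and 0.09 within number 1, a gap of −1.30. Each of these values compares 1 library with 1 library, so the gap was not tested. The same pattern, higher within number 1 and lower within number 2, was shown by 21.8% of all genes tested.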

How the results depend on the processing

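The 10 genes were called lower in number 2 by edgeR under each scaling, filter, single-accession and number-alone fit that included them, with DESeq2 calling 9 and losing Pax1 (adjusted p = 0.113, against 2.35e-15 to 0.0147 for its other settings). Prrx1 has several accessions and had no single-accession fit. With a library left out, the number fit has no residual degrees of freedom, so its value is the difference within the remaining label and no count of calls can be had. Over all genes the number test called 2603 (DESeq2) to 3979 genes (no filter). Without a label term, somite, surface ectoderm, cartilage and neural progenitor lists had 2, 3, 0 and 2 genes called lower, against 4, 5, 2 and 3 with it, and meningeal and progenitor lists had 2 and 1 called higher, against 4 and 3. Muscle, sclerotome and matrix lists had 8, 6 and 5 called lower in that fit, against 11, 8 and 7. DESeq2 called 9, 6 and 13 lower in the muscle, sclerotome and head mesenchyme lists, against 11, 8 and 16 by edgeR. Several other lists also lost a few calls in these fits. Between labels, 0 genes were called in the main fit and 92 with the replicate block, 63 lower and 29 higher; the labels can be read as pairing the numbers but do not say so, and the deviations of same-numbered libraries correlated at 0.62 across 10757 genes. The blocked log2 differences of the 10 genes were −0.29 to −1.13, all negative. Leaving out a library reversed the label difference of 9 of the 10 genes, as the labels then hold unequal shares of numbers 1 and 2. The ranges were −3.86 to 1.53 for Six2, −2.21 to 0.10 for Tbx15, −3.12 to 0.67 for Alx4, −1.76 to 0.25 for Twist1, −0.94 to 0.31 for Pax1, −1.24 to 0.36 for Pax9, −1.03 to 0.16 for Foxc2, −2.10 to 0.75 for Meox1 and −1.002 to 0.32 for Tbx18. For Prrx1 the range was −1.42 to −0.03. With 2 pools a label, precision is limited by the number of pools, and the part of depth was not tested.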

Other observations

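Neuronal genes rose in number 2 in 8 of 8 tested, where 17.8% of all genes were called higher, with a median log2 difference of 0.91. Map2, a microtubule protein of dendrites, rose by log2 1.46 (SE 0.10), and Elavl3, an RNA-binding protein of young neurons, and Gap43, a growth cone protein, by 0.97 (SE 0.10) and 0.96 (SE 0.10). Of 11 tested neural progenitor genes 3 were called higher and 3 lower, against 1 and 2 without a label term. Fabp7, a fatty acid binding protein of radial glia, rose by log2 0.78 (SE 0.10), and Mki67, a protein of dividing cells, fell (log2 −0.82, SE 0.13).

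Skeletal muscle genes were called lower in number 2 in 11 of 13 tested, where 17.8% of all genes were called lower, with a median of −1.64. DESeq2 called 9 of the 13 lower, and edgeR without a label term called 8. Myod1 and Myog, the bHLH factors of muscle commitment and differentiation, both fell (log2 −2.25, SE 0.21, and −2.07, SE 0.19). Surface ectoderm genes were called lower in 5 of 7, and in 3 without a label term, among them Krt18, a keratin of simple epithelium (log2 −2.04, SE 0.23), and Epcam, an epithelial adhesion protein (−1.34, SE 0.18).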
